A study of Mus musculus with 15 samples.

Results

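The RNA of 6 genes was described in whole mouse pituitaries with and without the pituitary enhancer of Nr5a1. They are Aebp1, Slurp2, Sult5a1, Fam196a, Cpeb4 and Zfp46, and they hold 6 of the 55523 rows in the count table, exactly 1 each. They were picked because their RNA had been lower in mice lacking the enhancer in the male comparison, the female comparison or both, so every difference between genotypes given for them below is a description and carries no test.

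The enhancer, PE, lies in an intron of Nr5a1 and was deleted with CRISPR/Cas9. RNA was sequenced from whole pituitaries of 4 PE+/- males, 4 PE-/- males, 4 PE+/- females and 3 PE-/- females. Every animal therefore carried at least 1 deleted copy of PE. The PE+/- mice that served as controls also lacked 1 copy, and no wild-type pituitary entered these comparisons. Age at collection is not given in the sources used here. Whether each library came from a separate animal is not stated in the labels, so the p-values measure the spread between these libraries. Library totals ran from 12982794 to 30238443 estimated counts.

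NR5A1, also called SF-1, is a nuclear receptor found in the steroid-producing cells of the gonad and adrenal and, within the pituitary, in gonadotropes. Gonadotropes make the gonadotropins LH and FSH when GnRH reaches its receptor on their surface, and NR5A1 binds DNA at sequences close to CAAGGNCA, where N is any base. They are a minority of the gland, so in whole-pituitary RNA fewer gonadotropes and less RNA per gonadotrope cannot be told apart. Levels are given as CPM, counts scaled to the library total, scaled over all 15 libraries. Among low values in the table, 5 was 1.52 times as frequent as the mean of its neighbours, 9 was 1.16 times and 13 was 1.08 times. At 17 the ratio was 1.004, so this excess in steps of 4 faded. The sources used here do not describe it. A floor of detection of 12 counts in a library was used, which is 3 fragments if 4 estimated counts stand for 1 fragment.

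Nr5a1 itself matched the genotype labels in every library. It had 621 to 1138 counts in PE+/- males and 0 to 13 in PE-/- males, and 431 to 953 counts in PE+/- females against 10 to 29 in PE-/- females. Mean Nr5a1 in PE-/- pituitaries was 0.690% of the control mean in males and 1.87% in females. The 11 gonadotrope markers summed to between 9630 and 17042 CPM in PE+/- males and between 1386 and 6828 CPM in PE-/- males. Nr0b2 was at 0 in PE-/- males and already low in PE+/- males, at 0.997 ± 0.777 CPM (SD, n = 4) with 1 library at 0. In females they summed to between 6034 and 8939 CPM in PE+/- and between 2291 and 6962 CPM in PE-/-. Of 10 gonadotrope markers tested, 4 passed an adjusted p of 0.05 in males (Gnrhr, Lhb, Nr0b1 and Nr5a1) and 6 in females (the same 4, Spp1 and Tgfbr3l), all of them lower. The part of gonadotrope content in the values below was not tested.

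The 6 genes differ in what they encode. Aebp1 encodes a secreted protein of the extracellular matrix, also called aortic carboxypeptidase-like protein, which binds collagen and belongs by sequence to the metallocarboxypeptidases. Slurp2 encodes a small secreted protein of the Ly6/uPAR family that acts on acetylcholine receptors. Sult5a1 belongs to the cytosolic sulfotransferases, enzymes that move sulfate onto small molecules. Fam196a, now named Insyn2a, encodes a protein of inhibitory synapses. Cpeb4 encodes an RNA-binding protein that recognises cytoplasmic polyadenylation elements in mRNAs and controls their translation. Zfp46 encodes a zinc finger protein of the Krüppel type.

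On GRCm38 (mm10), Aebp1 occupies 5861947 to 5872088 of chromosome 11 on the plus strand, and Cpeb4 occupies 31872211 to 31935634 of the same chromosome and strand. Slurp2 lies on the minus strand of chromosome 15 from 74742764 to 74746693. Sult5a1 lies on the minus strand of chromosome 8 from 123140192 to 123158315. Fam196a lies on the minus strand of chromosome 7 from 134881926 to 134938430, inside Dock1, which runs on the plus strand from 134670654 to 135173639. Zfp46 lies on the plus strand of chromosome 4 from 136284683 to 136293942. The loci are thus on 5 chromosomes.

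Promoter windows of the members are shown because Nr5a1 encodes a DNA-binding protein whose preferred letters can be looked for directly. RefSeq promoter windows of the same assembly, 250 bases before to 50 bases after a start, matched 5 of the 6 genes, with a pair of windows for Zfp46. Slurp2 had no match. Capitals mark the GC box GGGCGG on either strand. They also mark the CCAAT box and the TATA box TATAAA on either strand. These 3 motifs were added after the windows had been read.
Aebp1, chr11:5861616-5861915, plus strand: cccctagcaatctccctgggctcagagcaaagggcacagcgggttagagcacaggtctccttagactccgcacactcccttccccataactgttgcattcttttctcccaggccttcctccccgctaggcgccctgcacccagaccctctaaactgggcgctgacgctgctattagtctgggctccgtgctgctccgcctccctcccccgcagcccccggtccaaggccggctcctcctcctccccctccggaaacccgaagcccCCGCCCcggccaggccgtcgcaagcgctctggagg
Sult5a1, chr8:123158231-123158530, minus strand: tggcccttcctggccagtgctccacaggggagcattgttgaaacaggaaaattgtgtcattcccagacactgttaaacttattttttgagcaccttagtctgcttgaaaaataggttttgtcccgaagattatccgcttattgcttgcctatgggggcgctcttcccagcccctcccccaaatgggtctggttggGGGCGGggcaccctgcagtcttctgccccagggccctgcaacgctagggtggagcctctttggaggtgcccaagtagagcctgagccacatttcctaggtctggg
Fam196a, chr7:134938381-134938680, minus strand: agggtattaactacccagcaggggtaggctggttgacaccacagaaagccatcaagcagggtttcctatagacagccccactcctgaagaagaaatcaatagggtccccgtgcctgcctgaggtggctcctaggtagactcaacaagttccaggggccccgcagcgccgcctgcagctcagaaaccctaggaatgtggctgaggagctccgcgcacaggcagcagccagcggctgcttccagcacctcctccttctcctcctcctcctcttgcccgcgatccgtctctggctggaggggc
Cpeb4, chr11:31870690-31870989, plus strand: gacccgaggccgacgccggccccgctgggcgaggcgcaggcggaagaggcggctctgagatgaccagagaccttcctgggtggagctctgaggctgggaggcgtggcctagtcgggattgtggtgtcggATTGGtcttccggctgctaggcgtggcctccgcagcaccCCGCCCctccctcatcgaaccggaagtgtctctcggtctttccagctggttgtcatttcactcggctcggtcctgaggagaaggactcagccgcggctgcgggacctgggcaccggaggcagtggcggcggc
Zfp46, upstream window, chr4:136284426-136284725, plus strand: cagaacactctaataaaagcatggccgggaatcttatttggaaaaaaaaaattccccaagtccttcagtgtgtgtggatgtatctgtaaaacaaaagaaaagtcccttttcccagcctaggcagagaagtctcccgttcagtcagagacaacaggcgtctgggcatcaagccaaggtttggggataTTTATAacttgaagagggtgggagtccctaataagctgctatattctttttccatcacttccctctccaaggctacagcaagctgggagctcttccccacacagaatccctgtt
Zfp46, downstream window, chr4:136285817-136286116, plus strand: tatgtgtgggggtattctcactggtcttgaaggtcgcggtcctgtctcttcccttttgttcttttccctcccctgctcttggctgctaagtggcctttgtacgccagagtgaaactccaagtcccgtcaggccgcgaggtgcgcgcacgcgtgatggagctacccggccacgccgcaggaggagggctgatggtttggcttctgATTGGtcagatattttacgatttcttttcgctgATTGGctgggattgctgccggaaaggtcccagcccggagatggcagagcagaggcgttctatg

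None of the 6 windows held CAAGGNCA on either strand, the letters closest to an NR5A1 site, which 6.71% of 32851 mouse promoter windows of this length held. AGGTCA, which can lie within that site, was in 0 of the 6 windows and in 16.3% of all windows. The palindromic oestrogen response element, GGTCA and TGACC with any 3 bases between them, was in 0 of the 6 and in 0.0700% of all. GGGCGG stood once each in the windows of Aebp1, Sult5a1 and Cpeb4, and in 35.7% of all windows. CCAAT stood once in the Cpeb4 window and at a pair of places in the downstream Zfp46 window, 46 and 13 bases before the start, and in 37.4% of all windows. TATAAA stood once, in the upstream Zfp46 window, and in 13.6% of all windows. The Fam196a window held none of the motifs searched. These matches describe letters in the windows and no binding was measured.

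All 6 genes had a lower mean in PE-/- pituitaries in both sexes, but by very different amounts. Slurp2 was at 0 in every PE-/- library of either sex. Aebp1 and Fam196a kept a larger share of the control level in one sex than in the other, and Sult5a1 kept a similar share in both. In males, 3 of the 4 PE-/- libraries of Cpeb4 and 1 of Zfp46 were at or near the PE+/- level, and 1 PE+/- library of Cpeb4 was as low as the PE-/- females.

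**Figure D1:**
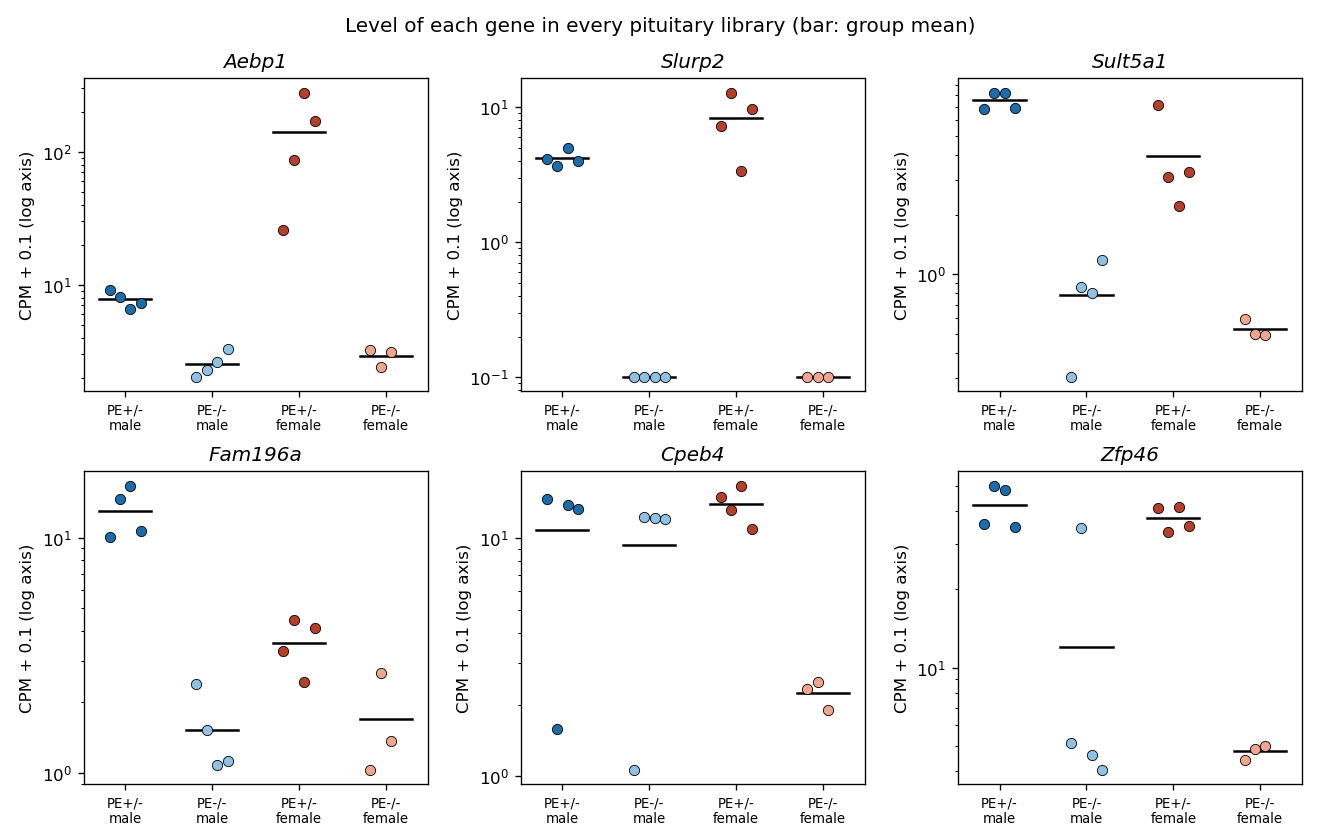
Level of each of the 6 genes in all 15 libraries, as CPM plus 0.1 on a log axis, with 1 panel per gene, 1 point per library and a bar at the group mean. The PE-/- libraries of Slurp2 all sit at 0 CPM, the 4 PE+/- female Aebp1 points stand above all others, and single male libraries of Cpeb4 and Zfp46 sit far from the rest of their group.

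Slurp2 was the gene whose groups were separated most cleanly. PE+/- males had 4.01, 3.57, 4.88 and 3.88 CPM in replicates 1 to 4 (4.08 ± 0.560, SD, n = 4), and PE+/- females had 7.18, 12.7, 3.26 and 9.57 CPM (8.18 ± 3.99, SD, n = 4). The 4 PE-/- males and 3 PE-/- females had no Slurp2 count in any library. Set against that assumed floor of 12 counts in each PE-/- library, Slurp2 was at least 7.07-fold lower in males and at least 15.003-fold lower in females.

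Sult5a1 was low in all 7 PE-/- libraries. PE+/- males had 6.76, 8.16, 8.11 and 6.78 CPM (7.45 ± 0.786, SD, n = 4) and PE-/- males had 0.202, 0.765, 0.702 and 1.08 CPM (0.687 ± 0.363, SD, n = 4), which came from 4 to 20 counts. PE+/- females had 7.03, 3.01, 2.12 and 3.17 CPM (3.83 ± 2.18, SD, n = 4) and PE-/- females 0.494, 0.402 and 0.394 CPM (0.430 ± 0.0556, SD, n = 3), from 8 to 13 counts. In 1 PE-/- male and 2 PE-/- female libraries the count was at or under the floor. The genotypes did not overlap in either sex. The retained share was 9.23% in males and 11.2% in females, and the fitted log2 fold changes were -3.43 (SE 0.41) and -3.15 (SE 0.51).

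Aebp1 varied mainly on the control side. PE+/- males had 9.08, 8.02, 6.52 and 7.23 CPM (7.71 ± 1.10, SD, n = 4), whereas PE+/- females had 25.7, 87.0, 277 and 171 CPM (140 ± 109, SD, n = 4). Even the lowest PE+/- female library stood above every male library. PE-/- males had 1.92, 2.18, 2.53 and 3.18 CPM (2.45 ± 0.547, SD, n = 4) and PE-/- females 3.15, 2.32 and 3.02 CPM (2.83 ± 0.447, SD, n = 3), so that the PE-/- groups of the 2 sexes overlapped. PE-/- pituitaries kept 31.8% of the control mean in males and 2.02% in females, and the log2 fold changes were -1.65 (SE 0.22) and -5.64 (SE 0.86).

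Because Aebp1 is also a gene of connective tissue, markers of connective tissue and mural cells are given beside it. The 12 markers summed to 798, 704, 817 and 752 CPM in PE+/- males and 441, 596, 592 and 486 CPM in PE-/- males. They summed to 945, 1242, 1173 and 740 CPM in PE+/- females and 586, 510 and 480 CPM in PE-/- females. The sum was thus lower in PE-/- than in PE+/- libraries of both sexes, without overlap, and Rgs5, a pericyte gene, was its largest part. The PE+/- female with the lowest Aebp1, replicate 1, did not have the lowest marker sum. Of the 12 markers, Col1a2, a collagen chain, was the 1 that passed the test. It was lower in PE-/- females (42.8 ± 11.4 CPM, SD, n = 3) than in PE+/- females (165 ± 27.0 CPM, SD, n = 4), and in PE+/- mice it was higher in females than in males (54.0 ± 8.41 CPM, SD, n = 4), as Aebp1 was. Col1a1, Dcn, Lum and Col3a1, other matrix genes of fibroblasts, did not pass in any comparison, with 11.4 ± 5.59 CPM of Col1a1 in PE+/- females and 14.1 ± 4.54 in PE-/- females. The part of connective tissue in the Aebp1 values was not tested.

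Fam196a showed the opposite imbalance between the sexes. PE+/- males had 10.0, 14.5, 16.5 and 10.6 CPM (12.9 ± 3.12, SD, n = 4) and PE-/- males 2.27, 1.42, 0.983 and 1.02 CPM (1.42 ± 0.599, SD, n = 4). PE+/- females had 3.20, 4.35, 2.34 and 4.02 CPM (3.48 ± 0.901, SD, n = 4) and PE-/- females 0.926, 2.56 and 1.27 CPM (1.59 ± 0.864, SD, n = 3). Male groups were far apart, while in females PE-/- replicate 2 lay above PE+/- replicate 3. The retained share was 11.05% in males and 45.6% in females, with log2 fold changes of -3.17 (SE 0.33) and -1.12 (SE 0.43).

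Cpeb4 was lower in all 3 PE-/- females, at 2.22, 2.38 and 1.79 CPM (2.13 ± 0.303, SD, n = 3), than in the 4 PE+/- females, at 14.8, 13.1, 16.5 and 10.9 CPM (13.8 ± 2.43, SD, n = 4). In males there was no such separation. PE+/- males had 14.5, 1.48, 13.7 and 13.1 CPM (10.7 ± 6.16, SD, n = 4) and PE-/- males 0.960, 12.2, 12.03 and 11.9 CPM (9.28 ± 5.55, SD, n = 4). One library of each male genotype was as low as the PE-/- females, and the other 6 were as high as the PE+/- females. The log2 fold change was -2.70 (SE 0.23) in females, a retained share of 15.4%, and -0.20 (SE 0.81) in males.

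Zfp46 had the highest mean level of the 6 genes per kilobase of exon in PE+/- males, at 8.08 ± 1.57 CPM per kb (SD, n = 4), within the spread of Slurp2 at 7.49 ± 1.03. The means of the others were 1.9995 for Fam196a, 1.90 for Aebp1, 1.69 for Sult5a1 and 1.68 for Cpeb4, all 4 within 1 SD of each other. In PE+/- females the order by mean CPM per kb was Aebp1 (34.5 ± 26.9), Slurp2 (15.02 ± 7.32), Zfp46 (7.24 ± 0.818), Cpeb4 (2.17 ± 0.382), Sult5a1 (0.867 ± 0.493) and Fam196a (0.540 ± 0.140), where Aebp1, Slurp2 and Zfp46 overlapped within 1 SD, as did Sult5a1 and Fam196a. PE+/- males had 35.6, 50.2, 48.2 and 34.6 CPM (42.1 ± 8.18, SD, n = 4) and PE+/- females 41.1, 33.1, 41.7 and 35.1 CPM (37.7 ± 4.26, SD, n = 4). PE-/- females had 4.32, 4.76 and 4.90 CPM (4.66 ± 0.302, SD, n = 3), 12.3% of their control mean and a log2 fold change of -3.02 (SE 0.17). PE-/- males had 5.003, 34.3, 4.49 and 3.92 CPM (11.9 ± 14.9, SD, n = 4), so that replicate 2 lay just under the lowest PE+/- male. The male log2 fold change was -1.82 (SE 0.72), and -3.23 without PE-/- male replicate 2.

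**Figure D2:**
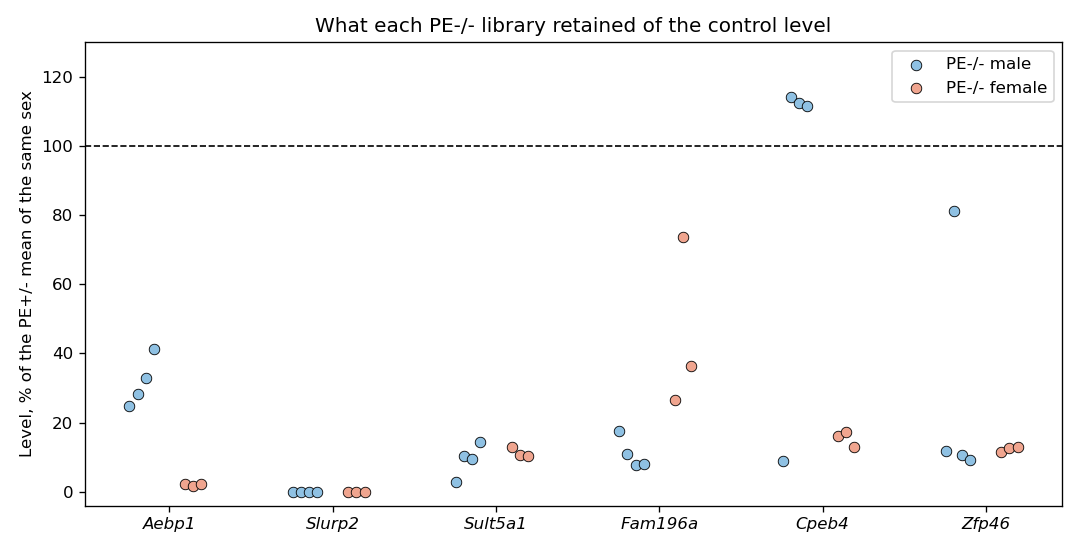
Level of each gene in each PE-/- library as a percentage of the PE+/- mean of the same sex, with a dashed line at 100%, blue points for males and red points for females. Slurp2 is at 0 throughout, Sult5a1 keeps 9.23% of the control mean in males and 11.2% in females, and 3 male Cpeb4 points and 1 male Zfp46 point stand far above the other PE-/- libraries of those genes.

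By the fit across all genes (edgeR, Benjamini-Hochberg adjusted p under 0.05), 4 of the 6 genes were called lower in PE-/- males, namely Aebp1, Slurp2, Sult5a1 and Fam196a, where 0.0862% of 17392 genes tested were called lower. In females 5 of the 6 were called lower, all but Fam196a, where 0.697% of 18085 genes were called lower. Since the genes were picked on these contrasts, nothing is read from these counts. The median log2 fold change of the 6 was -2.49 in males and -3.09 in females, and the medians over all genes tested were 0.0027 and 0.0018. The genotypes did not overlap for 5 of the 6 genes in males, where 2.01% of all genes were lower in every PE-/- library, and for 5 of the 6 in females, where 8.93% were.

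With single libraries left out, 1 to 4 of the members were called lower in males and 2 to 5 in females. In the 8 male fits the Aebp1 call was lost in 7, all but the one without PE-/- replicate 4, and the Sult5a1 call in 6, all but those without PE-/- replicates 1 and 4. The Slurp2 call was lost in 1, without PE+/- replicate 4, and the Fam196a call in 1, without PE-/- replicate 2, where Zfp46 was called. In the 7 female fits the calls of Aebp1 and Sult5a1 were each lost in 6, all but the one without PE+/- replicate 1, and the Slurp2 call in 5, all but those without PE+/- replicates 1 and 3. The female calls of Cpeb4 and Zfp46 were lost in 0 of the 7.

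The log2 fold changes themselves gave these ranges. Male Zfp46 ranged from -3.23 to -1.53, and male Cpeb4 from -0.57 to 0.17. Aebp1 ranged from -1.80 to -1.56 in males and from -5.98 to -5.07 in females, and Sult5a1 from -3.71 to -3.14 and from -3.36 to -2.68. Fam196a ranged from -3.49 to -3.03 in males and from -1.67 to -0.85 in females.

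**Figure D3:**
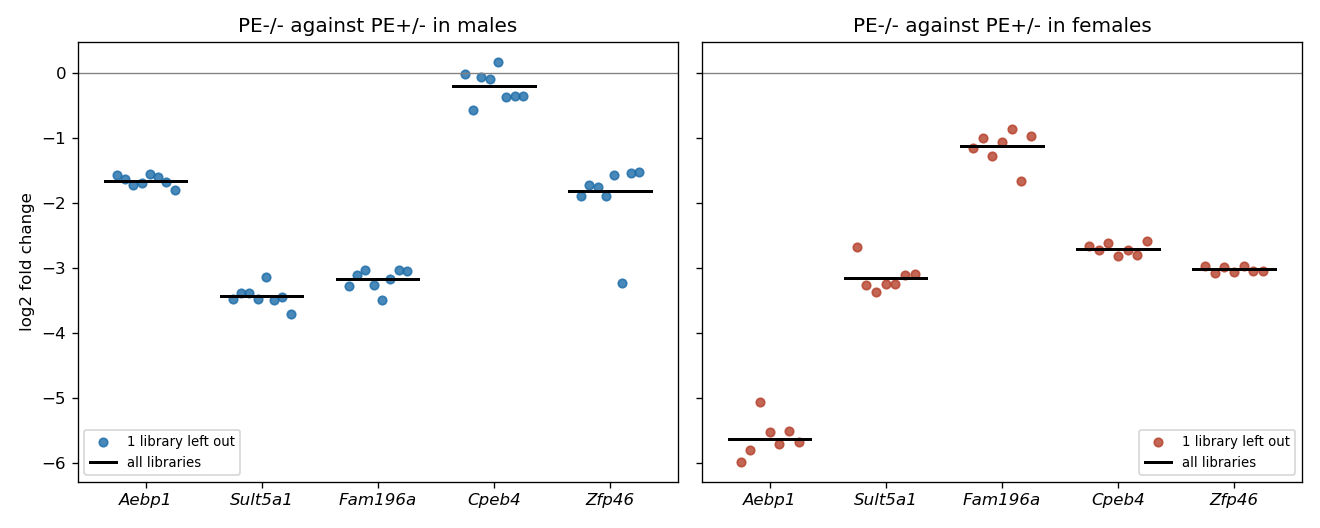
Log2 fold change of PE-/- against PE+/- for 5 of the genes in males and in females, with a bar for all libraries and a point for each fit with 1 library left out. Slurp2 is not drawn because all its PE-/- libraries were at 0. Male Zfp46 moves from -1.82 to -3.23 without PE-/- replicate 2, and male Cpeb4 stays near 0.

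Cpeb4 and Zfp46 each fell into a low and a high set of libraries with nothing in between. The 5 low Cpeb4 libraries lay between 0.960 and 2.38 CPM and the 10 high ones between 10.9 and 16.5 CPM. The 6 low Zfp46 libraries lay between 3.92 and 5.003 CPM and the 9 high ones between 33.1 and 50.2 CPM. For Zfp46 the low set was every PE-/- library except male replicate 2. For Cpeb4 it was the 3 PE-/- females with PE+/- male replicate 2 and PE-/- male replicate 1, so that 2 groups had libraries on both sides. A gap of 4-fold or more with at least 2 libraries on each side was present in 4.62% of the 11892 genes with a mean of 100 counts or more, a measure chosen after the values had been seen. Of those 550 genes, 534 had libraries of at least 1 group on both sides, as Cpeb4 and Zfp46 did. Nr5a1 was as labelled in the libraries that stood apart, with 751 counts in PE+/- male replicate 2, 6 in PE-/- male replicate 1 and 9 in PE-/- male replicate 2.

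The sexes were then compared within each genotype. These comparisons use the same PE+/- and PE-/- libraries as the contrasts on which the genes were picked, so they are not independent of that choice. In PE+/- pituitaries, Aebp1 was higher in females and Fam196a was higher in males, without overlap. All 4 females lay above all 4 males for 5.32% of genes, and below them for 4.44%. Mean Aebp1 was 18.2 times the male mean in females (log2 difference 4.18, SE 0.66, adjusted p = 0.0387 by edgeR). Mean Fam196a was 3.71 times the female mean in males (log2 difference -1.88, SE 0.26, adjusted p = 0.0257 by edgeR). Of 17163 genes tested, 0.414% passed with a higher level in females and 0.256% with a higher level in males. Col1a2 of the connective tissue list moved with Aebp1 in this comparison, and its part was not tested. The calls of Aebp1 and Fam196a were mostly lost whichever library was left out. Their log2 differences in those fits ranged from 3.61 to 4.52 for Aebp1 and from -2.01 to -1.73 for Fam196a. Aebp1 passed in 1 of 8 fits with a library left out, the one without PE+/- female replicate 1, and had adjusted p between 0.0704 and 0.135 in the other 7, without each PE+/- male and PE+/- female replicates 2, 3 and 4. Fam196a passed in 0 of the 8. Over all alternatives the adjusted p ranged from 4.65e-10 to 0.288 for Aebp1 and from 3.15e-08 to 0.227 for Fam196a.

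The other 4 genes did not pass between the sexes in PE+/- pituitaries. Slurp2 had a log2 difference, females over males, of 1.01 (SE 0.38, adjusted p = 0.292) and Sult5a1 one of -0.96 (SE 0.37, adjusted p = 0.300). Cpeb4 had 0.38 (adjusted p = 0.851) and Zfp46 -0.15 (adjusted p = 0.779). Their male and female PE+/- libraries overlapped.

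In PE-/- pituitaries none of the 5 genes tested differed between the sexes at an adjusted p of 0.05, and none had groups without overlap (2.72% of all genes were lower and 2.52% higher in every female). In all, 9 of 18217 genes passed there by edgeR, which is 0.0494%, with 614 at an unadjusted p under 0.05 and 41 by DESeq2. Aebp1, with its large female excess in PE+/-, had a log2 difference of 0.20 in PE-/- (adjusted p = 0.997), and Fam196a had 0.17. Cpeb4 had -2.12 (SE 0.76), passing only without PE-/- male replicate 1 (adjusted p = 0.0193), the male library with low Cpeb4.

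**Figure D4:**
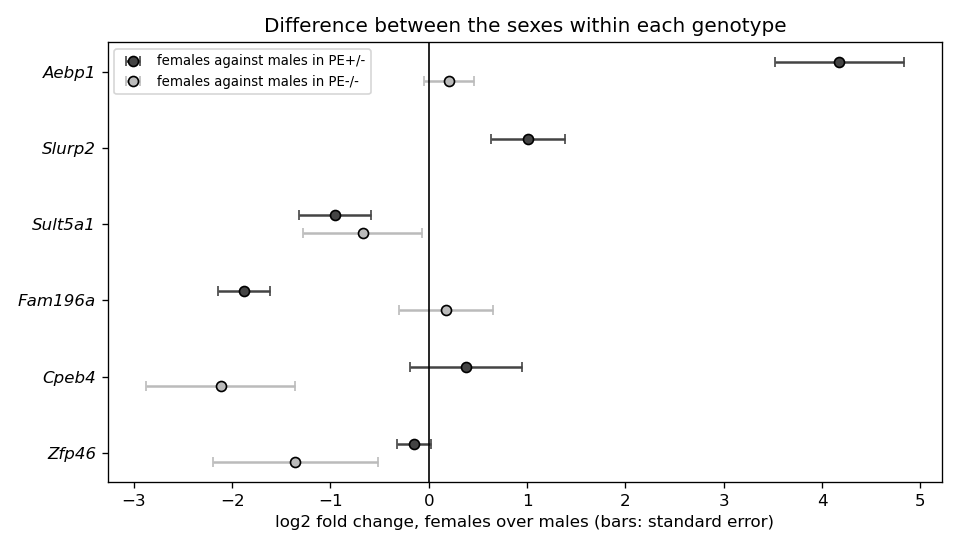
Log2 difference of females over males for each gene, with dark points for PE+/- and pale points for PE-/- pituitaries and bars for the standard error. In PE+/-, Aebp1 lies at 4.18 and Fam196a at -1.88, and in PE-/- at 0.20 and 0.17. Slurp2 has no PE-/- point because it was at 0.

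The difference of the genotype effect between the sexes rests on the same contrasts that chose the genes, so its values for the members are a description. In females the log2 fold change of Aebp1 was 3.98 lower than in males (log2 difference -3.98, SE 0.76), and that of Fam196a was higher by 2.06 (SE 0.51). The difference was 0.29 for Sult5a1 (SE 0.65), -1.20 for Zfp46 (SE 0.83) and -2.49 for Cpeb4 (SE 0.99). By edgeR 0 of the 6 were called, where 0.161% of 19286 genes were called (31 genes, with 1949 at an unadjusted p under 0.05), and DESeq2 called 2, from which nothing is read. For Slurp2 the difference could not be estimated, because no PE-/- library of either sex had a count.

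Relatives of the 6 genes, taken as whole families, showed a single gene that passed the test. Chrna4, the nicotinic acetylcholine receptor subunit alpha 4, was lower in PE-/- males, at 1.26 ± 0.660 CPM (SD, n = 4, range 0.626 to 2.12), than in PE+/- males, at 13.3 ± 4.00 CPM (SD, n = 4, range 9.08 to 18.7). The log2 fold change was -3.39 (SE 0.41, adjusted p = 0.0203 by edgeR) and the groups did not overlap. The call was lost in 5 of 8 fits with a library left out, without PE+/- male replicates 1, 3 and 4 and PE-/- male replicates 2 and 3, and the adjusted p ranged from 1.41e-13 to 0.196 over all alternatives. The female means of Chrna4 were 6.41 ± 2.56 CPM for PE+/- (SD, n = 4) and 2.40 ± 0.688 CPM for PE-/- (SD, n = 3), with a log2 fold change of -1.43 (SE 0.37, adjusted p = 0.12 by edgeR). It was 1 of 10 nicotinic receptor subunits tested in males, whose median log2 fold change was -0.18.

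No other relative passed in any of the 5 comparisons. The metallocarboxypeptidases, relatives of Aebp1, had 14 genes tested in males and 15 in females, with median log2 fold changes of 0.049 and 0.34. The Ly6/uPAR proteins, relatives of Slurp2, had 16 tested in each sex, with medians of -0.29 and -0.12. The sulfotransferases and enzymes of sulfate donor synthesis, around Sult5a1, had 11 tested in each sex, with medians of -0.12 and 0.14. The 11 genes of the inhibitory synapse scaffold, around Fam196a, had medians of -0.015 and 0.19. The 19 genes of the CPEB family and cytoplasmic polyadenylation, around Cpeb4, had medians of 0.081 and 0.20, and the 11 genes of KRAB zinc finger repression, around Zfp46, had medians of 0.070 and 0.074.

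The nearest relatives of Cpeb4 gave values unlike its own. Cpeb3 was 18.8 CPM on average in PE+/- males and 19.1 in PE-/- males, and 17.4 and 19.2 in PE+/- and PE-/- females. Cpeb1 averaged 31.8, 33.9, 25.5 and 33.4 CPM in the same order, and Cpeb2 averaged 15.01, 9.62, 10.2 and 11.5 CPM. None of the 3 passed the test in any comparison. The same held for Lynx1, a Ly6/uPAR gene beside Slurp2 on chromosome 15, which averaged 67.4, 57.7, 60.5 and 54.7 CPM.

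**Figure D5:**
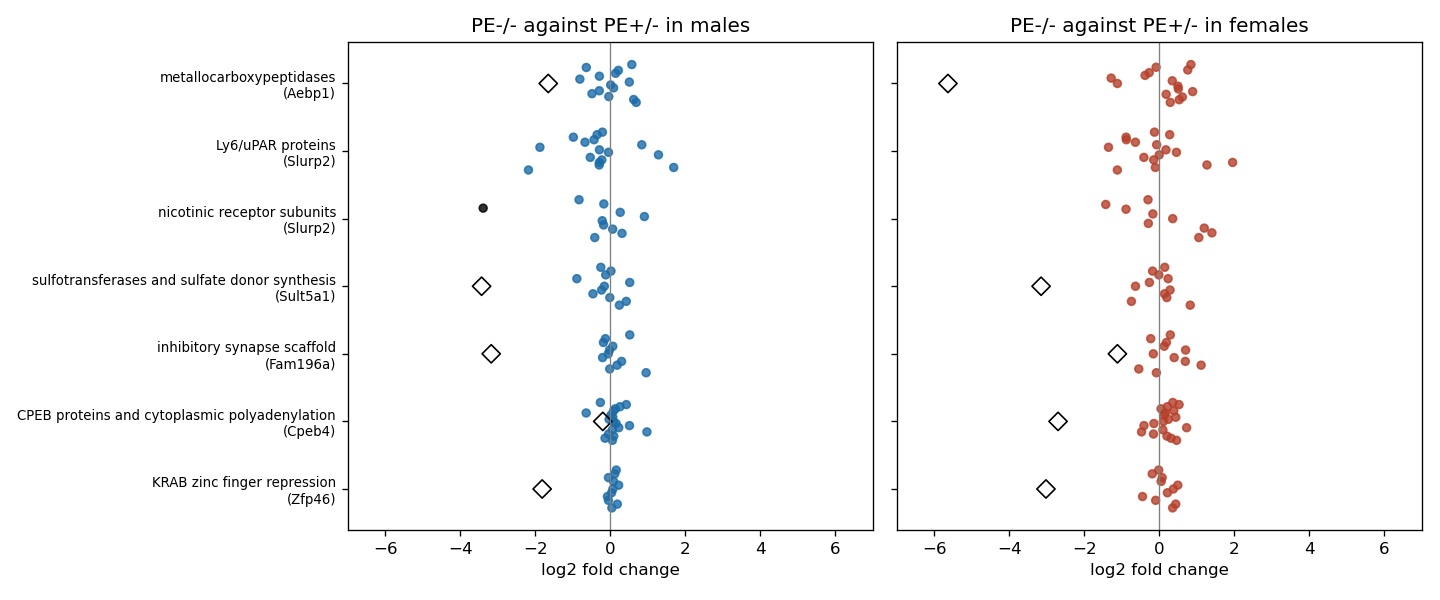
Log2 fold change of PE-/- against PE+/- for each tested relative, in males on the left and in females on the right, with 1 row per family and the member itself as an open diamond. The black point is Chrna4 at -3.39 in males, the 1 relative that passed, and Slurp2 has no diamond because its PE-/- libraries were at 0.

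Genes next to the members did not pass the test either. Of the genes within 100 kb, 10 were tested around Aebp1, 6 or 7 around Slurp2, 15 around Sult5a1, 1 or 2 around Fam196a, 2 around Cpeb4 and 3 around Zfp46, and 0 were called in any comparison by edgeR. Dock1, a guanine nucleotide exchange factor within which Fam196a lies on the opposite strand, had 17.02 ± 3.57 CPM in PE+/- males (SD, n = 4) and 14.4 ± 1.49 in PE-/- males (SD, n = 4), and 13.3 ± 2.41 in PE+/- females (SD, n = 4) and 15.01 ± 2.08 in PE-/- females (SD, n = 3). Its log2 fold changes were -0.24 (SE 0.18, adjusted p = 0.970 by edgeR) and 0.17 (SE 0.20, adjusted p = 0.763 by edgeR). Strand use in counting is not given in the sources used here, so reads from Dock1 and Fam196a may not be separable where they overlap. The annotated models Gm45597, on the same strand as Fam196a, and Gm45532, on the other, also lie within it. Gm45597 was near the limit of detection, at 0.378 ± 0.188 CPM in PE+/- males (SD, n = 4), 0.139 ± 0.108 in PE-/- males (SD, n = 4) and 0.645 ± 0.512 in PE+/- females (SD, n = 4), where 1 library was at 0. It was at 0 in all 3 PE-/- females (adjusted p = 0.182 by edgeR) and was not tested in males. Gm45532 held 10 counts over all 15 libraries and was not tested. Gm20388, which overlaps Sult5a1, was at 0 in every library.

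Genes were also ranked by how closely their standardised log2 CPM over the 15 libraries followed each member, out of 19285 genes compared. The measure was the root mean square difference, where 0 means the same profile. Slurp2 was closest to Tgfbr3l (0.262), a TGF-beta co-receptor-like gene of gonadotropes, then to Rasgrf1 (0.278) and to Nr5a1 itself (0.281). Tgfbr3l averaged 107 ± 128 CPM in PE+/- males (SD, n = 4, range 30.2 to 297) and 133 ± 22.8 CPM in PE+/- females (SD, n = 4). In PE-/- pituitaries it averaged 3.23 ± 0.529 CPM in males (SD, n = 4) and 3.24 ± 0.0910 CPM in females (SD, n = 3). Rasgrf1 was also closest to Sult5a1 (0.388), followed by the iron exporter Slc40a1 (0.409) and by Nr0b1 (0.438), a nuclear receptor gene of gonadotropes.

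Aebp1 was closest to Chst11 (0.228), a chondroitin sulfotransferase, then Tgm6 (0.263) and Tmem86a (0.291). Tgm6, a transglutaminase gene, averaged 14.2 ± 7.29 CPM among the 4 PE+/- females and 0.356 ± 0.328 CPM among the 4 PE+/- males (SD), and was at 0 in all PE-/- libraries. Fam196a was closest to Fshb (0.402), the FSH beta subunit, which averaged 2703 ± 567.8 CPM in PE+/- males (n = 4), 651 ± 739 in PE+/- females (n = 4), 72.4 ± 48.8 in PE-/- males (n = 4) and 64.2 ± 21.4 in PE-/- females (n = 3). Both genes thus had their highest mean in PE+/- males. The next neighbours of Fam196a were Ccl28 and Gm42793 (both 0.447). Gm42793 was near the limit of detection, at 1.29 ± 0.621 CPM in PE+/- males (SD, n = 4), with lower means in the other groups.

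Zfp46 was closest to Lrrc2 (0.408), then to Lhb (0.480), the LH beta subunit, and Gnrhr (0.494), the GnRH receptor. Lrrc2 was near the limit of detection, at 1.33 ± 0.732 CPM in PE+/- males (SD, n = 4) and 0 in all PE-/- females. Cpeb4 had no gene nearer than Gm13827 (0.487), followed by Scarna2 (0.540) and the pseudogene Rpl9-ps7 (0.542), all of which had lower means in PE-/- females than in PE+/- females, as Cpeb4 had. Gm13827 and Scarna2 were also low, with group means between 0.495 and 2.10 CPM. Closeness of profile over 15 libraries is a description, since the 4 groups alone give it much of its shape.

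Markers of other cell types gave few calls. Across 10 further lists, Prl, the lactotrope hormone, was the 1 marker that passed, lower in PE-/- females at 5079 ± 580 CPM (SD, n = 3) than in PE+/- females at 30093 ± 5984 CPM (SD, n = 4). Markers of somatotropes, corticotropes, melanotropes, thyrotropes, stem or folliculostellate cells, the posterior lobe, endothelium, immune cells and erythroid cells gave 0 calls in any comparison. The sum of corticotrope markers in single PE-/- male libraries ranged from 4728 to 115040 CPM, and Avp and Oxt of the posterior lobe were at 0 in both female groups. Whether cell composition has a part in the values of the 6 genes was not tested.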

How the data were processed

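RNA-seq libraries of whole pituitaries were put into 4 groups by genotype and sex as labelled. The authors deposited 1 table of whole-number estimated counts per gene for 15 libraries. Per the labels and the methods, adapters were cut with cutadapt, reads were aligned with STAR to mm10 (GRCm38) and counted with featureCounts. The deposited estimated counts are named by assembled locus. The values 5, 9 and 13 are more frequent than their neighbours, a step of 4 that these sources do not describe. If 4 counts are 1 fragment, precision is lower than the counts imply.

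Genes were filtered with filterByExpr (minimum count 10, minimum total 15), scaled by TMM and tested with edgeR 4.0.16 (R 4.3.3) by its quasi-likelihood F test with Benjamini-Hochberg adjustment at 0.05. Fits were made on the libraries of each comparison, genotype within sex, sex within genotype, and on all 15 for the interaction. The standard error is the log2 fold change divided by the root of F. CPM means are over libraries, with SD. Totals ran from 12982794 to 30238443, and the detection floor was 12 counts per library. The pipeline was tested on simulated data with less spread between libraries than these data. Only well-counted genes were changed there, so that test does not cover members at low counts. Profile likeness used log2 CPM with a prior count of 2.

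The 6 members, the 12 marker lists and the 7 lists of relatives were chosen with earlier results of these data known. Named besides the members were Nr5a1, relatives past the threshold, overlapping genes and the 3 closest profiles per member. Cpeb1, Cpeb2, Cpeb3, Lynx1 and single markers were named after their values were seen. Alternatives were DESeq2 1.42.0, its size factors in edgeR, no filter, counts divided by 4, counts summed per locus, a joint fit of the 15 libraries, a block term for the labelled replicate numbers, and fits with each library left out. Loci are from GENCODE and promoter windows from RefSeq. Pituitary cell preparations of the study were not analysed here.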

Additional observations from a re-analysis of the deposited data

Results flagged for a closer look

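In 3 of the 17 groups of 4 libraries with any spread, 1 library stood apart from the other 3 by Dixon's criterion. Chance alone would give about 1 in 20 such groups if values within a group were normally distributed, which was not tested. Cpeb4 in PE+/- male replicate 2 was 1.48 CPM, with 13.1 to 14.5 CPM in the other PE+/- males, and the gap was 0.893 of the group's range. Cpeb4 in PE-/- male replicate 1 was 0.960 CPM, with 11.9 to 12.2 CPM in the other PE-/- males, and the gap was 0.977 of the range. Zfp46 in PE-/- male replicate 2 was 34.3 CPM, with 3.92 to 5.003 CPM in the other PE-/- males, and the gap was 0.964 of the range.

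Libraries 4-fold or more from the median of the rest of their group were frequent in the table, by a measure chosen after these values were seen. Among 11892 genes with a mean of 100 counts or more, such a library was present in 7.83% of genes in PE+/- males, 6.53% in PE-/- males, 8.20% in PE+/- females and 5.68% in PE-/- females, and in 15.9% in at least 1 group. All 3 members with that mean count, Aebp1, Cpeb4 and Zfp46, were among the latter.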

How the results depend on the processing

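The log2 fold changes of the members were recomputed 455 times under the alternatives, and 383 kept their direction and their side of the threshold. The 5 that changed sign all came from leaving out 1 library. With single libraries left out, male Cpeb4 ranged from -0.57 to 0.17, positive without PE-/- male replicate 1. Between the sexes in PE-/-, Fam196a ranged from -0.37 (PE-/- female replicate 2 left out) to 0.49, and Zfp46 from -1.65 to 0.061 (PE-/- male replicate 2 left out). In the interaction, Sult5a1 ranged from -0.019 (PE-/- male replicate 1 left out) to 0.76, and Zfp46 from -1.49 to 0.22 (PE-/- male replicate 2 left out).

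The number of genes called depended more on the method. DESeq2 called 206 genes in males where edgeR called 23, 1431 in females where edgeR called 189, 902 between the sexes in PE+/- where edgeR called 115, 41 in PE-/- where edgeR called 9, and 392 in the interaction where edgeR called 31, with 2 members in the last. One fit on all 15 libraries called 37, 714 and 421 genes in males, females and between the sexes in PE+/-. Without the filter 123 genes were called in females and 66 between the sexes in PE+/-. The cause was not tested. Leaving out single libraries gave 11 to 35 genes in males, 29 to 244 in females, 34 to 113 between the sexes in PE+/-, 7 to 27 in PE-/- and 7 to 71 in the interaction. The members called ranged from 1 to 4, 2 to 5, 0 to 1, 0 to 1 and 0 to 1 in the same order.

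The labels give the same replicate numbers to every group. Deviations of same-numbered libraries from their group means correlated between -0.081 and 0.13 over 14 pairs, and 2 of the 14 were above 0.1, so the numbers were not taken as pairs. With the replicate number as a block, 0 genes were called in males, 1 in females, 0 between the sexes in PE+/-, 0 in PE-/- and 11 in the interaction, and 0 members in each.

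Depth limits Slurp2 and Sult5a1 most, since their PE-/- libraries held 0 to 20 counts.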
